A study of Brassica rapa subsp. pekinensis with 10 samples.

Results

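Of 47548 features measured in Chinese cabbage (Brassica rapa subsp. pekinensis), 170 (0.358%) stood at least 1.0 log2 unit, or 2-fold, higher in each of 8 arrays of cold-stressed plants than in either of 2 arrays of unstressed plants. They were chosen by that measured gap, the lowest cold array minus the higher normal array on the log2 scale of the deposited intensities, so their excess over normal is a description and carries no test. A feature here is a set of array probes with an identifier of the form Brapa_ESTC, and 163 of the 170 had 7 probes (95.9%, against 98.4% of all features). The series covers 2 varieties, Man-Su and Shin-Hong, both labelled wild type in their normal arrays. Each contributed 1 array of unstressed plants, called its normal array here, and 4 of cold-stressed plants, sampled after 15, 30, 60 and 120 min, so no group has a replicate. The sources used here do not give tissue, temperature or plant age, and a change in RNA per cell cannot be told from a change in the makeup of the tissue.

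Plants sense a drop in temperature within minutes. In the related plant Arabidopsis, cold first induces transcription factors such as the CBF (C-repeat binding factor) proteins, which then switch on a larger group of cold-regulated genes that protect membranes and proteins from chilling and freezing. Some cold-induced transcripts peak early and decline, while others build up over hours and stay high as long as the cold lasts. The files do not pair the feature identifiers with gene names, and 0 of the 47548 matched the gene table used here, so no gene, pathway or function can be given for any member.

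The array medians over all features lay between 12.02 and 12.08 log2 units. The variety labels of the normal and the cold arrays do not go together: of 207 features over 2 log2 units apart between every Shin-Hong cold array and every Man-Su cold array, 0 kept the labelled direction in the normal arrays. None of these 207 is among the 170 members. The rule that chose the members uses no variety label, but it asks the dimmer variety in cold to clear the higher normal array. It thus disfavours features far apart between the varieties, so their absence is no result about the members. Any value of a variety against its own normal array depends on those labels and is given below with both readings. The values do not decide which of the 2 sets of labels is at odds with the plants. The variety and time comparisons used the 8 cold arrays alone, and if it is the cold arrays that are misnamed, every Shin-Hong minus Man-Su direction below turns.

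The members stood well clear of normal on average. Their mean rise over the 8 cold arrays, against the mean of the 2 normal arrays, had a median of 1.93 log2 units (3.81-fold), with quartiles at 1.67 and 2.33. The smallest was 1.25 log2 units (2.38-fold) and the largest 3.83 (14.2-fold). A mean rise of at least 2 log2 units was found in 80 members and one of at least 3 in 12. The gap itself was narrower, with a median of 1.20 log2 units, and it reached 1.5 in 39 members, 2.0 in 11 and 2.5 in 5.

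Many members lay close to the threshold. Of the 170, 50 had a gap under 1.1, and a further 69 features had a gap of 0.9 to just under 1.0. The 3 members nearest above the threshold had gaps of 1.0006, 1.0021 and 1.0036, and the 3 features nearest below it had 0.9993, 0.9988 and 0.995. Which of these 6 count as members thus rests on differences of under 0.01 log2 units. Any gap above 0 was found in 5852 features (12.3%), and the mirror rule, highest cold array at least 1.0 below the lower normal array, was met by 18. The size of the set leaned on the normal arrays: it was 816 when the Man-Su normal array was left out and 376 when the Shin-Hong normal array was. Leaving out any cold array gave 170 to 206.

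**Figure D1:**
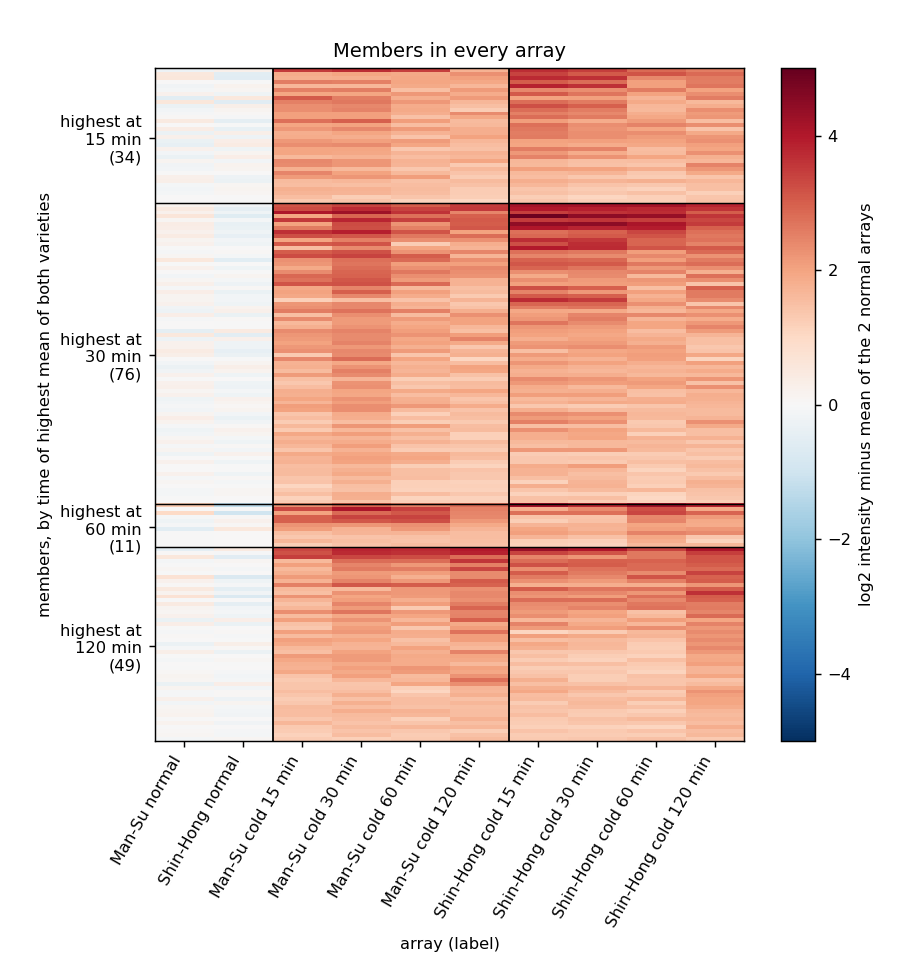
Log2 intensity minus the mean of the 2 normal arrays (colour) for the 170 members (rows) in the 10 arrays (columns, by label). Rows are grouped by the cold time at which the mean of both varieties was highest, with 34, 76, 11 and 49 members for 15, 30, 60 and 120 min, and every cold cell is above 1.0 by the choice of members.

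Brapa_ESTC025362 had the widest gap, 2.96 log2 units. Its normal arrays read 9.77 (Man-Su) and 9.57 (Shin-Hong) log2 units. In Man-Su it was 13.21, 13.46, 13.08 and 12.73 at 15, 30, 60 and 120 min of cold, and in Shin-Hong 13.18, 13.24, 13.12 and 13.02. All 8 cold values lay within 0.731 log2 units of each other, so this feature was at its cold level at the first sampling in both varieties. Its mean rise was 3.46 log2 units (11.0-fold).

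Brapa_ESTC006798 had the second widest gap, 2.89, and the largest mean rise of the set, 3.83 log2 units (14.2-fold). Its normal arrays read 8.55 (Man-Su) and 9.48 (Shin-Hong). Its Man-Su cold values were 12.37, 12.83, 12.74 and 12.97 at 15, 30, 60 and 120 min. Shin-Hong gave 13.33, 13.03, 12.41 and 13.11 at those times. Its normal arrays lay 0.931 log2 units apart, nearly as far as its highest and lowest cold arrays (0.961), and the cold arrays of the varieties overlapped.

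The brightest member by mean over the cold arrays read 13.36 and 13.31 log2 units in the normal arrays and at 14.40 to 14.89 in cold. The dimmest stood at 5.30 in both normal arrays, close above the random-sequence control there (5.13 and 5.25), and at 6.39 to 6.90 in cold. The random-sequence control read 5.13 to 5.74 over the 10 arrays. In no array did a member fall below that control, and the highest member value, 14.89, was below the highest value of any feature, 16.00.

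As a group the members stood at a similar height above normal at each cold time. At 15, 30, 60 and 120 min the median rise of the members was 1.84, 2.11, 1.81 and 1.72 log2 units in Man-Su and 2.06, 2.002, 1.78 and 1.99 in Shin-Hong, so medians differed by less than 0.4 between any cold arrays. Over all features the same medians lay between 0.0002 and 0.094 log2 units. The mean of both varieties at 15 min already came to a median of 93.1% of the highest of the 4 time means, in log2 units, and to at least 90% in 108 members. In 17 members it was under 75%, and the lowest was 60.7%. The rule favours such early profiles, since it demands a gap of 1.0 at 15 min. Over the 8 cold arrays the highest and lowest value of a member differed by a median of 0.99 log2 units (0.29 to 2.92), against 0.82 over all features.

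**Figure D2:**
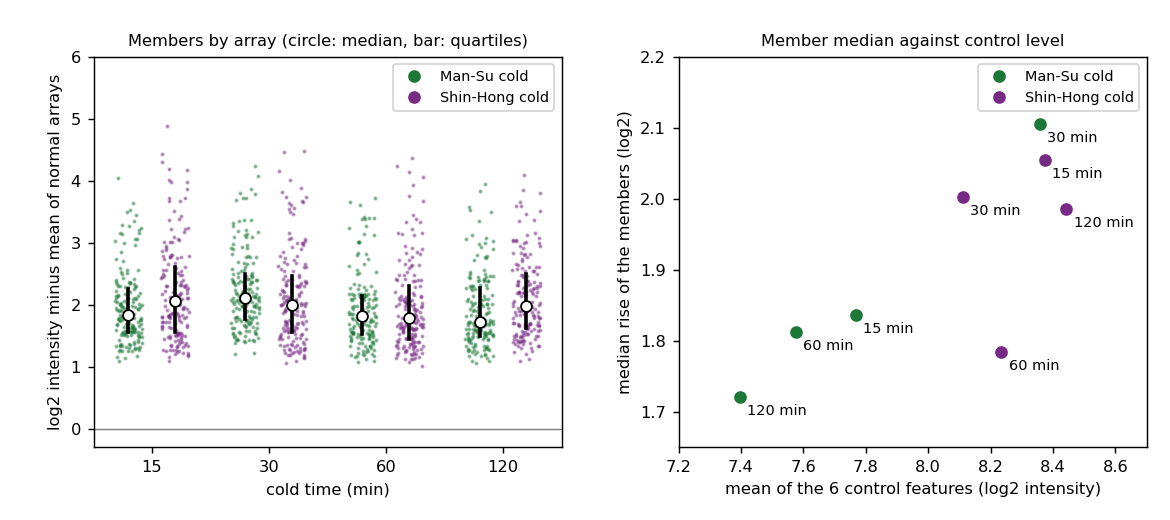
Left, log2 intensity of each member minus its mean over the normal arrays, by cold time (min) and variety, with the median (circle) and quartiles (bar) of the 170 members in each array. Right, the median rise of the members in each of the 8 cold arrays against the mean log2 intensity of its 6 control features: Man-Su cold 30 min has the highest median, 2.11, and Man-Su cold 120 min the lowest, 1.72.

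No member passed the test for a change with cold time. With limma, on the slope of log2 intensity per doubling of cold time and variety as a term, 0 of 170 members were called at an adjusted p under 0.05. Over all features 0.0841% were called, 0.0694% higher and 0.0147% lower with longer cold. At an unadjusted p under 0.05, 10 members (5.88%, against 6.28% of all features) had a positive and 23 (13.5%, against 6.35%) a negative slope. The median slope of the members was -0.04 log2 units per doubling, with quartiles at -0.12 and 0.04, and 109 of 170 (64.1%) were negative, against 49.9% of all features. The lowest adjusted p of any member was 0.0835.

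Brapa_ESTC011749 had the most negative slope, -0.48 ± 0.12 log2 units per doubling (SE, n = 8 arrays; limma adjusted p = 0.152). With normal values of 9.17 (Man-Su) and 9.69 (Shin-Hong), it reached 12.93, 13.12, 12.83 and 11.15 log2 units in Man-Su at 15, 30, 60 and 120 min. In Shin-Hong the values were 13.11, 12.89, 12.25 and 11.97. Both varieties were lowest at 120 min, while the other cold values of Man-Su lay within 0.3 of each other. Leaving out Man-Su cold 120 min brought its slope to -0.30, and it was then no longer the most negative, since the next members had -0.48 and -0.47. With the slope taken per minute, its limma adjusted p was 0.0402.

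Brapa_ESTC014219 came next, with -0.43 ± 0.14 log2 units per doubling (SE, n = 8 arrays; limma adjusted p = 0.256). Its normal values were 6.99 (Man-Su) and 6.56 (Shin-Hong). Its cold values were 9.84, 9.91, 8.02 and 8.59 in Man-Su and 10.00, 10.45, 9.69 and 9.25 in Shin-Hong. The early arrays were thus the high ones in both varieties, and Man-Su cold 60 min was the lowest and set the gap of 1.04. The third most negative slope was -0.43 ± 0.10 (SE, n = 8 arrays; limma adjusted p = 0.134).

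At the other end, the most positive slope was 0.34 ± 0.11 log2 units per doubling (SE, n = 8 arrays; limma adjusted p = 0.238). That member had normal values of 9.95 (Man-Su) and 10.18 (Shin-Hong). It read 11.69, 12.85, 12.87 and 13.64 at the successive cold times in Man-Su and 12.87, 13.04, 13.01 and 13.22 in Shin-Hong. The spread thus lay mostly in Man-Su, whose 15 min array was the lowest of the 8, and leaving that array out brought the slope to 0.19. The next most positive slopes were 0.34 and 0.32, with limma adjusted p of 0.176 and 0.269. The former became 0.23 when the same array was left out, and the latter 0.17 when Shin-Hong cold 120 min was.

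**Figure D3:**
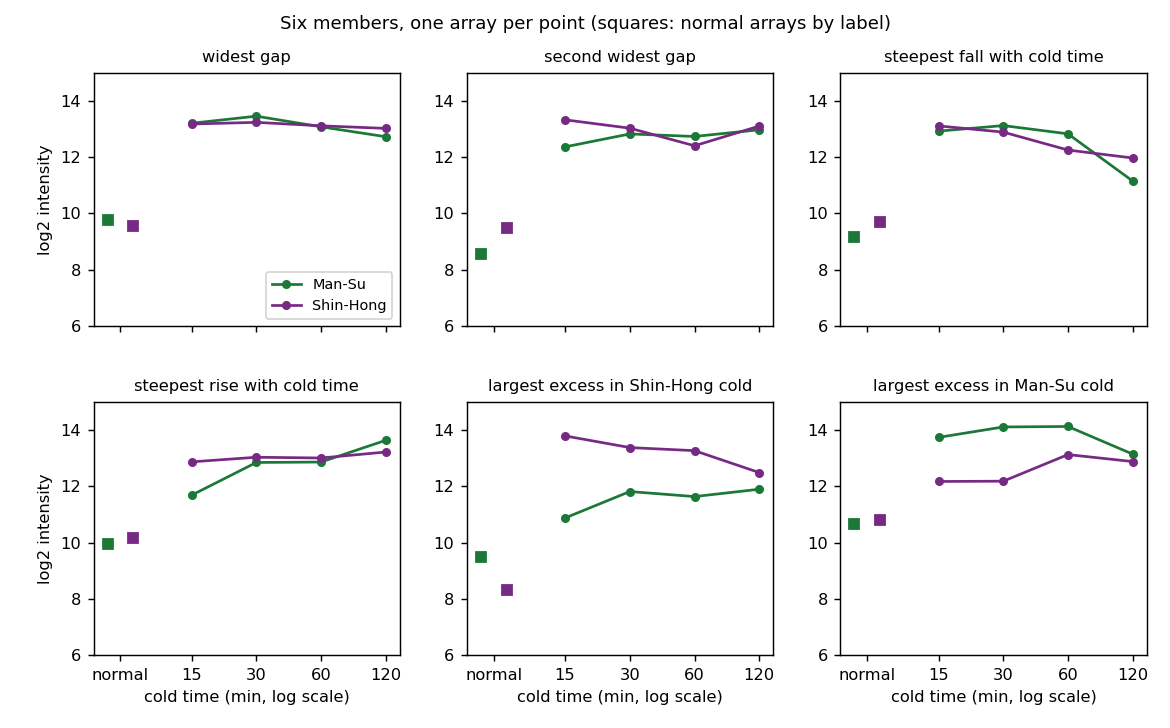
Log2 intensity of 6 members against cold time (min, log scale), 1 array per point, with the normal arrays as squares by their label. The member with the widest gap spans 0.731 log2 units in cold and that with the second widest 0.961, the member with the most negative slope ends at 11.15 and 11.97, and the members with the largest variety differences have their varieties closest at 120 min.

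Steps between successive times were tested as well, with 2 arrays a time. Limma called 0 members, and 0% of all features, for 30 against 15, 60 against 30 and 120 against 60 min. At an unadjusted p under 0.05, 2 members were higher and 0 lower at 30 than at 15 min, 0 higher and 18 lower at 60 than at 30 min, and 12 higher and 10 lower at 120 than at 60 min. The 18 are 10.6% of the members, where 1.46% of all features reached that p in the same direction. For the other counts above 0, the 2 are 1.18% against 0.734%, the 12 are 7.06% against 3.45%, and the 10 are 5.88% against 3.42%. The median step of the members was 0.07 log2 units to 30 min, -0.21 to 60 min and 0.07 to 120 min, and 141 of 170 (82.9%) were lower at 60 than at 30 min, against 48.7% of all features. These medians rested on single arrays. Leaving out the Man-Su array of 30 min gave a median step of -0.03 to 30 min and -0.04 to 60 min, and leaving out that of Shin-Hong gave 0.1997 and -0.34. The step to 30 min also became 0.02 when the 15 min array of Man-Su was left out and 0.14 when that of Shin-Hong was. The step to 120 min was 0.01 without Shin-Hong cold 60 min and likewise without Shin-Hong cold 120 min, and it was 0.13 and 0.14 without the Man-Su arrays of those times.

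Compared with all features, members were more often highest at 30 min in Man-Su and at 15 min in Shin-Hong. In Man-Su, 98 members (57.6%) were highest at 30 min, where 27.9% of all features had their highest Man-Su cold value. In Shin-Hong, 59 (34.7%) were highest at 15 min, against 18.1% of all features, and 76 (44.7%) were lowest at 60 min, against 27.3%. The 64 members (37.6%) highest at 120 min in Shin-Hong were near the share of all features, 36.0%. The highest value fell at the same time in both varieties in 42 members (24.7%), a share near the 26.9% of all features. Values higher at every step were found in 8 members in Man-Su (4.71%, against 5.77% of all features) and 3 in Shin-Hong (1.76%, against 6.67%). Values lower at every step were found in 5 in Man-Su (2.94%, against 4.72%) and 17 in Shin-Hong (10.0%, against 6.89%).

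The level of the control features also differed between the arrays. The mean of the 6 controls (5 barcode sequences and the random-sequence control) was 8.36 log2 units in Man-Su cold 30 min and 7.40 to 7.77 in the other Man-Su cold arrays. In the Shin-Hong cold arrays it was 8.11 to 8.44, and in the normal arrays 7.42 and 7.65. Apart from Man-Su cold 30 min, control level and variety thus went together in cold, and their parts can hardly be told apart. The 4 highest member medians were in arrays with controls at 8.11 or above, while Shin-Hong cold 60 min, with 8.23, had a low member median of 1.78. Within Shin-Hong cold, the lowest control level, 8.11 at 30 min, went with a member median of 2.002. The highest, 8.44 at 120 min, went with 1.99. With the mean control level as a covariate, the median step of the members was 0.04 log2 units to 30 min, -0.13 to 60 min and 0.07 to 120 min, and 0 members were called. Its part in the peak counts was not tested.

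Between the varieties in cold, the members differed in both directions. Limma, with cold time as a block, called 23 members higher in Shin-Hong than in Man-Su (13.5%) and 13 lower (7.65%). Over all features 22.3% were called, 10.8% higher and 11.5% lower, so the members' total was close to the background while the balance leaned to Shin-Hong; that lean was not tested. The median difference, Shin-Hong minus Man-Su, was 0.05 log2 units over the members, with quartiles at -0.23 and 0.36 and a range of -1.19 to 1.68. Over all features the median was -0.05. The sign of the members' median is not settled: it was -0.06 with the control level as a covariate and -0.03 without either 120 min array, and it was 0.01, 0.10 and 0.07 without either array of 15, 30 and 60 min. The varieties were over 1 log2 unit apart in 11 members (6.47%), a share close to the 6.96% of all features. The rule bears on the members' share, since the dimmer variety must also clear the gap.

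The 23 members called higher in Shin-Hong cold had a median difference of 0.77 log2 units (1.71-fold). All 23 were higher in Shin-Hong at each of the 4 times. In 19 of them every Shin-Hong cold array exceeded every Man-Su cold array. Over all members that held for 25 (14.7%), where the share of all features was 12.1%. The 23 were picked on these same arrays by a fit that favours such agreement, so it describes the call and adds no support. The median difference of the 23 was 1.22 log2 units at 15 min, 0.78 at 30 min, 0.59 at 60 min and 0.67 at 120 min. Their median rise over the mean of the normal arrays was 2.88 in Shin-Hong and 1.90 in Man-Su.

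The 13 called lower in Shin-Hong cold had a median difference of -0.66 log2 units (1.58-fold). All 13 were lower at each of the 4 times, which the call on these same arrays again favours. In 8 of them every Man-Su cold array exceeded every Shin-Hong cold array; over all members that held for 9 (5.29%), against 12.6% of all features. Their median difference was -0.74 at 15 min, -0.92 at 30 min, -0.74 at 60 min and -0.28 at 120 min. Differences in slope between the varieties were not called for any member: limma gave 0 of 170, and 0% of all features. At an unadjusted p under 0.05, 9 members had a more positive slope in Shin-Hong (5.29%, against 1.83% of all features) and 13 a more negative one (7.65%, against 2.63%).

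**Figure D4:**
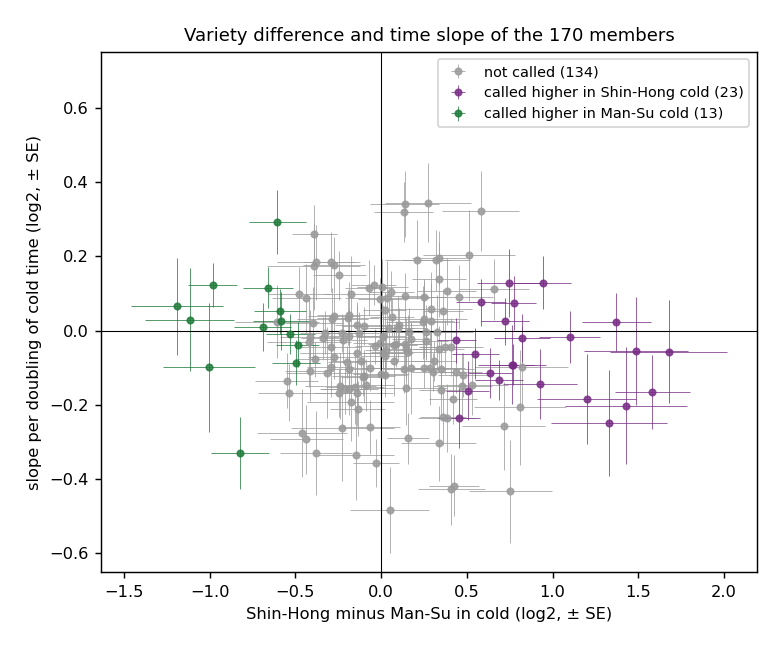
Fitted slope per doubling of cold time against the fitted Shin-Hong minus Man-Su difference in cold, both in log2 units with their SE, for the 170 members. Purple points are the 23 members called higher in Shin-Hong cold and green points the 13 called higher in Man-Su cold, and neither group lies wholly on one side of slope 0.

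The member with the largest excess in Shin-Hong read 13.79, 13.38, 13.27 and 12.49 log2 units there at 15, 30, 60 and 120 min and 10.88, 11.82, 11.64 and 11.90 in Man-Su. Its difference was 1.68 ± 0.34 log2 units (SE, n = 8 arrays; limma adjusted p = 0.0212), or 3.20-fold, and no cold array of one variety overlapped those of the other. Its normal arrays ran the opposite way by label, 9.49 in Man-Su and 8.30 in Shin-Hong. The next largest differences were 1.58 ± 0.22 (limma adjusted p = 0.00758) and 1.49 ± 0.30 (limma adjusted p = 0.0215; SE, n = 8 arrays). All 3 had their varieties furthest apart at 15 min. Leaving out 1 array moved the largest of these differences to between 1.26 and 2.04. The members with differences of 1.68 and 1.49 lost their call without an array of 15 or 60 min. The member with 1.49 also lost it with the mean control level as a covariate. The member with 1.58 kept its call under every alternative.

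The member with the largest excess in Man-Su read 13.74, 14.11, 14.13 and 13.15 log2 units there at 15, 30, 60 and 120 min, and 12.17, 12.18, 13.13 and 12.88 in Shin-Hong. Its difference was -1.19 ± 0.27 log2 units (SE, n = 8 arrays; limma adjusted p = 0.0274). The lowest Man-Su array, at 120 min, was level with the highest Shin-Hong array, at 60 min, to within 0.02. Its normal arrays were 10.68 and 10.81. The next were -1.11 ± 0.26 (limma adjusted p = 0.0299) and -1.003 ± 0.27 (limma adjusted p = 0.0418), both with SE and n = 8 arrays. Leaving out 1 array moved the largest of these differences to between -1.50 and -0.94. The first and second of these members lost their call without an array of 15 or 60 min. The third lost its call whichever array was left out.

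The count of variety differences, over the members and over all features, rested on the 15 and 60 min arrays. Leaving out either 15 min array left 3 members called and leaving out either 60 min array left 4, against 36 with all arrays. Without either 30 min array it was 24, and without either 120 min array 42. Over all features the calls went from 10612 to 1695 and 1681 without an array of 15 and 60 min, and to 11551 and 12642 without one of 30 and 120 min. Time is a block of 2 arrays, so leaving out 1 removes its time from the variety contrast. With the mean control level as a covariate, 17 members were called, 8 higher and 9 lower in Shin-Hong, and 3987 of all features.

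The Shin-Hong normal array minus the Man-Su normal array had a median of -0.06 log2 units over the members, from -2.55 to 1.06, and 13 members were over 1 log2 unit apart. The higher normal array, which sets the gap, was that of Man-Su in 97 members and that of Shin-Hong in 73. Of the 34 members whose cold arrays were parted by variety, 15 (44.1%) kept the labelled direction in the normal arrays, and 21.7% of all 11760 features so parted did. The rule bears on the members' share, since both varieties in cold must clear the higher normal array. Against the normal array of its own label, the median rise was 1.84 log2 units in Man-Su and 1.99 in Shin-Hong. Against the normal array of the other label it was 1.94 and 1.92, so the order of the varieties turns with the labels.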

How the data were processed

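Total RNA was labelled with Cy3 and hybridised to NimbleGen arrays, per the labels. The authors deposited linear intensity values per feature made with RMA (background correction, normalization and summary over probes), per the submitters' processing notes. The sources used here do not name the software, its version or whether arrays were normalized jointly. The number of probes per feature is a deposited column. A series-wide table held the same intensity values to within 0.005.

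Intensities were taken to log2 with no filter and no further normalization, since the rule for the members is written on deposited values; quantile normalization was an alternative. The 6 control features stayed out of the tests. Fits over all 47548 features on the 8 cold arrays used limma 3.58.1 (lmFit, eBayes; R 4.3.3), with Benjamini-Hochberg adjustment over all features and calls at 0.05. Residual degrees of freedom were 5 for the slope, 3 for variety and steps, and 4 for the slope difference. The labels do not say whether plants were pooled or sampled separately for each array, so p-values treat the arrays as samples and their spread may be technical. The scripts were tested on simulated data.

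The members, lists and tests were chosen with earlier results of these data known. Identifiers are printed for the 2 members with the widest gap and the 2 with the most negative slope; the extremes of slope, variety difference and brightness are described without one. None of the identifiers matched the gene table (assembly CAAS_Brap_v3.01), so no gene list was tested.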

Additional observations from a re-analysis of the deposited data

Results flagged for a closer look

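In 60 checks, each asking whether 1 array lay far outside its group, run on array summaries and on the members described, 5 stood out. Chance flags about 1 in 20 independent checks, and these read the same arrays again. The random-sequence control of Man-Su cold 30 min, 5.63 log2 units, lay far above its 3 counterparts in Man-Su cold, which read 5.23 to 5.26. Brapa_ESTC011749 stood at 11.15 log2 units in Man-Su cold 120 min, against 12.83 to 13.12 at the other Man-Su cold times. The member with the most positive slope stood at 11.69 in Man-Su cold 15 min, below the 12.85 to 13.64 of the other cold arrays. The member with the third most positive slope stood at 11.72 in Shin-Hong cold 120 min, above the 10.25 to 10.47 of the other Shin-Hong cold arrays and the 9.54 to 10.47 of all other cold arrays, which made 2 of the 5. The members in these checks were picked for steep slopes or wide differences, which favours far arrays, and the causes were not tested.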

How the results depend on the processing

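Where a count moved, the cause was not tested. The set held 899, 39 and 11 features at a gap of 0.5, 1.5 and 2.0 log2 units, against 170. It held 348 with the mean of the normal arrays as reference. Without 1 array it held 170 to 816, a change that the rule allows only upward. Quantile normalization gave 129, of which 126 were among the 170. The members called with cold time, 0, became 1 with an intensity trend in the prior variance and 4 with the slope per minute, all lower with longer cold, and stayed at 0 without any 1 array. Over all features that trend count, 40, was 92 with quantile normalization, 82 with dim values raised to the random-sequence control, 494 with the intensity trend, 590 per minute, 60 with the control level as a covariate and 0 to 75 without 1 array. The 36 members differing between varieties became 17 with the control level as a covariate, where all features called went from 10612 to 3987, and 3 to 42 without 1 array. Steps and slope differences called 0 members under every alternative run. The 6 members described for their slope and the 6 for their variety difference kept their direction under every alternative. For the latter, 25 of 78 alternatives lost the call. Leaving out either array of a time gave the same variety fit, so both the 78 and the 25 hold duplicates. Alternatives for the peak counts and the median rise were added after seeing the data: quantile normalization gave 97 and 76 members against 98 and 76, and a median rise of 1.86 against 1.93 log2 units. No paired analysis was possible because each group has 1 array and the labels give no replicate numbers to pair; the variety fit pairs arrays by cold time instead. With 1 array a group, the tests could miss large changes between times as well as small ones. For Brapa_ESTC014219 the step from 30 to 60 min, -1.32 log2 units, was not called (limma adjusted p = 0.991).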

Other observations

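Some members had nearly the same profile, and whether they measure the same transcript was not tested, since no probe sequence was used here. Of 14365 pairs of members, 198 correlated at 0.9 or more over the 8 cold arrays and 47 at 0.95 or more, with a median of 0.13 over all pairs. The pair with the largest excess in Man-Su correlated at 0.987 and differed by at most 0.27 log2 units in any of the 10 arrays. The pair with the most positive slopes correlated at 0.966 and differed by at most 0.45. Among members, 3 pairs had consecutive feature numbers, with correlations of 0.163 to 0.882.

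Across the members, each centred on its own cold mean, Shin-Hong cold 15 and 30 min correlated at 0.896 and Man-Su cold 15 and 30 min at 0.689. Man-Su cold 120 min and Shin-Hong cold 120 min correlated at 0.226, while the varieties at 15 min correlated at -0.587. These values share arrays and centring and are given as a description.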
